A study of Mus musculus with 9 samples.

Results

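The step examined here is the change between 35 h and 49 h of Sox17 induction in mouse embryonic stem cells (ESC). It sets 1 RNA sequencing library, from cells with 49 h of doxycycline (dox), against 1 library from cells with 35 h of dox, and these are 2 of the 9 libraries of the series. Both come from the same ESC line, in which dox switches on overexpression of the transcription factor gene Sox17, and both received 100 ng/ml dox. Per the labels, these ESC were grown over fibroblast feeder cells with serum and the cytokine LIF, so feeder RNA can be present in either library. A gene was compared where the authors' status was OK in both libraries and the higher of the 2 values was at least 1 FPKM (fragments scaled by transcript length and by library size). That held for 12997 of 37975 rows, of which 11860 are protein-coding.

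The other 7 libraries served only to place the genes of this step. They are the same Sox17 line after 7 h, 21 h and 6 days of dox, Sox17-XEN, the Sox17 line without dox, the wild-type line IM8AR of XEN cells (stem cells of the extraembryonic endoderm) and wild-type R1 ESC. XEN cells were kept in serum with medium conditioned by fibroblasts. The Sox17-XEN label gives 30 days on dox and 30 days off it without making their order plain, and the day 6 column carries the word SORT with no detail. No library without dox was collected beside the 35 h or the 49 h cells, and the labels do not say whether the course came from 1 clone or 1 culture.

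Sox17 is an HMG-box factor of endoderm. In the early embryo it belongs to the primitive endoderm programme, with GATA factors, whose cells go on to form visceral and parietal endoderm, and XEN cells are the cultured form of that lineage. Chemokines, acute phase proteins and matrix metalloproteinases are typical outputs of NF-kB and AP-1 signalling in fibroblasts, epithelia and immune cells, and guide leukocytes and remodel matrix.

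With a single library at each time there is no replicate error, no test was possible and no p-value is given. "Higher" and "lower" mean a difference of at least 1 log2 unit in log2(FPKM + 1), which is 2-fold in FPKM + 1, and a value in parentheses after a pair of levels is that difference (49 h minus 35 h). The authors' lower confidence bound was 0 for 98.9% of values at 1 FPKM or more in each of both libraries, and for none of the genes higher or lower did the authors' intervals at the 2 times separate. The table gives no read counts and the depth is unknown, and the ratio between low values put the 49 h library at 104% of the depth of the 35 h library. In bulk RNA, fewer cells of a type and less RNA per cell cannot be told apart.

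At 49 h, 142 genes were higher than at 35 h (1.09% of those compared) and 64 were lower (0.492%). Among protein-coding genes 84 were higher (0.708%) and 5 were lower (0.0422%), and the remaining calls were mostly snoRNA, snRNA and microRNA rows. At 2 log2 units or more, 61 genes of all types were higher (0.469%) and 44 lower (0.339%). The median gene differed by 0.04, and 60.3% of all genes compared had a difference above 0. Among the 8785 genes at 5 FPKM or more in both libraries, the central 95% of differences ran from -0.28 to 0.56, and 25 were higher (0.285%) and 2 lower (0.0228%). The plot of levels at 49 h against those at 35 h shows this asymmetry among protein-coding genes.

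**Figure D1:**
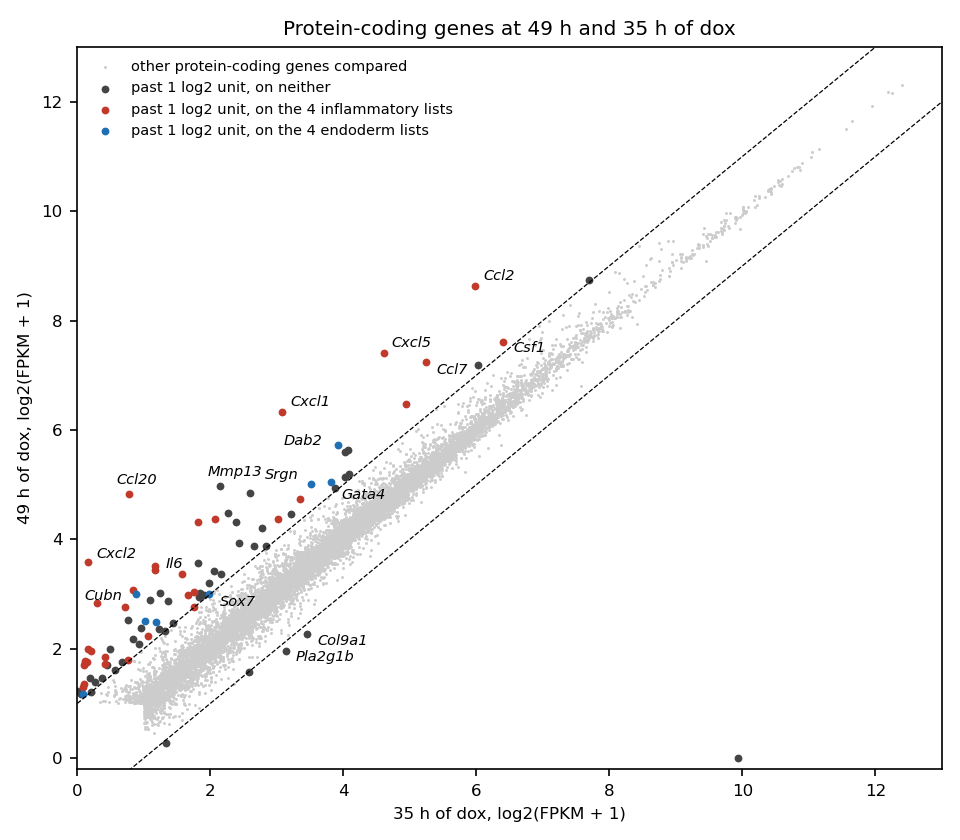
Levels of protein-coding genes at 49 h (vertical axis) and 35 h (horizontal axis), each as log2(FPKM + 1), 1 point per gene. Dashed lines mark a difference of 1 log2 unit: 84 genes lie on or above the upper line, led by chemokine genes, and 5 on or below the lower line, with Gm11032, listed at 0 at 49 h, at the lower right.

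The step held fewer genes than the difference between ESC lines. The Sox17 line without dox and R1 ESC, neither of which received dox, differed by 435 higher (3.67%) and 131 lower protein-coding genes (1.11%). In the course itself, 7 h against no dox gave 93 higher (0.787%) and 198 lower (1.68%), 21 h against 7 h gave 260 (2.17%) and 52 (0.434%), and 35 h against 21 h gave 13 (0.109%) and 31 (0.259%). These neighbouring steps share libraries with each other and with the step to 49 h. Libraries that did not differ in dox thus differed by more protein-coding genes than the libraries of the step.

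**Figure D2:**
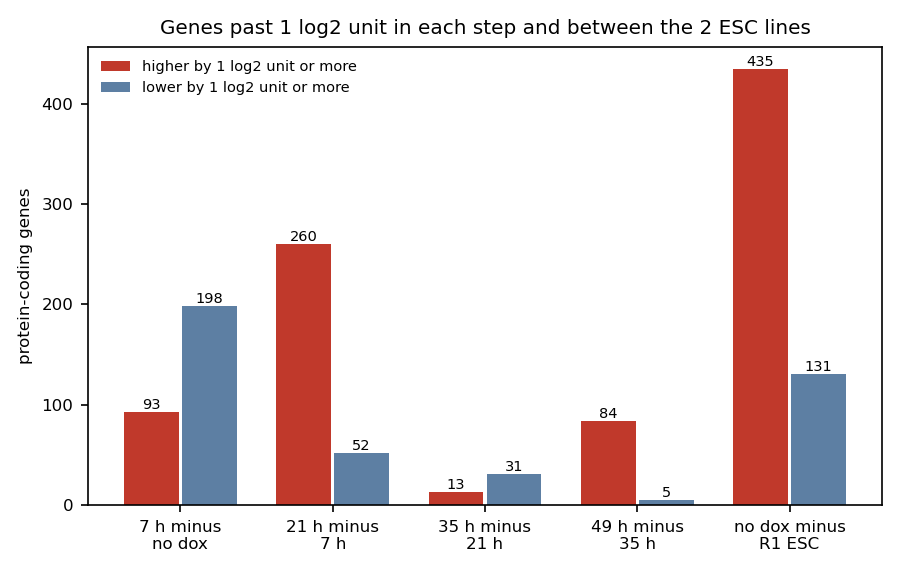
Number of protein-coding genes higher (left bar of each pair) or lower (right bar) by 1 log2 unit or more in each step of the dox course and between the 2 ESC lines without dox. The step from 35 h to 49 h has 84 higher and 5 lower, against 435 and 131 between the lines.

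Of the 84 higher protein-coding genes, 33 (39.3%) are on 4 lists of inflammatory genes (chemokine ligands, cytokines and acute phase genes, NF-kB pathway and targets, interferon response). Another 8 are on 4 lists of endoderm genes, and 43 are on neither. A further 37 measured genes of the inflammatory lists were not higher, and of all protein-coding genes compared 0.708% were higher. The lists were chosen with earlier results of these data known, so these counts are a description. At 35 h, 32 of the 84 were under 1 FPKM and 23 were at 5 FPKM or more.

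Under the filter used, chemokine ligand genes had the highest median of the lists examined. Of 19 measured chemokine genes 13 were higher and 0 lower, with a median difference of 1.61, against a median of 0.04 over all genes. Of the listed genes, 19 reached 1 FPKM at 49 h and 12 at 35 h, so some were compared only through their 49 h value. With no filter the median of all 29 was 0.62, under the 1.03 of the cytokine list. With both libraries at 5 FPKM or more, 4 of 6 were higher. The 29 listed chemokine genes summed to 926 FPKM at 49 h against 173 FPKM at 35 h, a ratio of 5.35. In the earlier libraries the sum was 193 FPKM without dox and 102 and 140 FPKM after 7 and 21 h, so the 35 h library did not stand out from them.

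Ccl20 (ENSMUSG00000026166, mm9 chromosome 1, 83113341 to 83115742), which encodes the ligand of the receptor CCR6, had the largest positive difference of any protein-coding gene. Its level without dox was 0.307 FPKM, and after 7, 21, 35 and 49 h of dox it was 0.0737, 0.298, 0.706 and 27.4 FPKM, a difference of 4.06 between 49 h and 35 h. Every library but that of 49 h was thus under 1 FPKM, including R1 ESC at 0.645 FPKM, and the gene was listed at 0 at day 6 and in wild-type XEN.

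The neutrophil-attracting ligands of the receptor CXCR2 came next. Cxcl1 was at 78.9 FPKM at 49 h against 7.42 FPKM at 35 h (difference 3.25), and had stood at 7.61, 2.06 and 5.90 FPKM without dox and after 7 and 21 h. Cxcl2 was at 11.01 FPKM at 49 h against 0.119 FPKM at 35 h (3.42), and Cxcl3 at 9.91 against 1.24 FPKM (2.28). Cxcl5, also a CXCR2 ligand, stood higher at 169 against 23.3 FPKM (2.80). Ppbp, a further ligand of that receptor, was at 32.4 FPKM at 49 h against 17.8 FPKM at 35 h, a difference of 0.83 that falls short of 1 log2 unit. Cxcl1, Cxcl2 and Cxcl3 are close paralogs, and how the counting divided reads among them is not stated.

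The promoters of Cxcl1, Cxcl2, Cxcl3 and of the cytokine gene Il6 are shown because they hold, within the window examined, an exact match to the NF-kB type motif, which is GGGA, any 1 base and TTTCC (searched on both strands, match in capitals). Each runs from 250 bases before to 50 bases after the RefSeq transcription start, 5′ to 3′ on the + strand of GRCm38.p6, a build other than the mm9 of the expression table. They are chr5:90890995-90891294 for Cxcl1, chr5:90903649-90903948 for Cxcl2, chr5:90785851-90786150 for Cxcl3 and chr5:30012864-30013163 for Il6.
Cxcl1: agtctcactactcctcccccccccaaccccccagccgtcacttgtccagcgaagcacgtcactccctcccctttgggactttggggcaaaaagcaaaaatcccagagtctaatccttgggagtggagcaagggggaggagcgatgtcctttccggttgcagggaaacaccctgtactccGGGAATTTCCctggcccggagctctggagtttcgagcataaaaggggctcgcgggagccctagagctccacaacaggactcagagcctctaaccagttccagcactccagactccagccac
Cxcl2: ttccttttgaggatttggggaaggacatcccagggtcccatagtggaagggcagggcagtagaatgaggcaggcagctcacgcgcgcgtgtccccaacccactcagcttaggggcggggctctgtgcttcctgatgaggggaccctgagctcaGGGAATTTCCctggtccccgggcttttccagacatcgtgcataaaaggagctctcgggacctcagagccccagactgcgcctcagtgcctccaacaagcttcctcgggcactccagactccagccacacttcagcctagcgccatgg
Cxcl3: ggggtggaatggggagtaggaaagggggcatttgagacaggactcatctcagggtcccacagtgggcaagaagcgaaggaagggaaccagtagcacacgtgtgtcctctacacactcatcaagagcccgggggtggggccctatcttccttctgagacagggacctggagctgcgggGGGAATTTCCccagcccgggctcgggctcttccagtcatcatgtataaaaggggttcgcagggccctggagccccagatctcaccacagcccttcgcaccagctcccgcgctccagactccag
Il6: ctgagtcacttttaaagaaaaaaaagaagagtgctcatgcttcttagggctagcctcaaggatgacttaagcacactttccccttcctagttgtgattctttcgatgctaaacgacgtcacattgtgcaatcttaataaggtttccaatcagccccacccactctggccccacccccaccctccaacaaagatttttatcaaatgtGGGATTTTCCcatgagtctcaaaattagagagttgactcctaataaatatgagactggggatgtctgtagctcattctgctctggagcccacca

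The letters GGGAATTTCC began 71, 97 and 73 bases before the start of Cxcl1, Cxcl2 and Cxcl3, and GGGATTTTCC began 44 bases before that of Il6. The motif was present in 0.466% of 27025 genes with a RefSeq promoter and in 0.502% of 8566 protein-coding genes compared. It was present in 5 of 63 higher protein-coding genes with a promoter (7.94%), which are these 4 and Csf1. All 5 are on the inflammatory lists, whose higher genes with a promoter held it in 5 of 25 (20%). The measured genes of those lists that were not higher held it in 2 of 30 (6.67%, Nfkb2 and Nfkbia), and the higher genes outside those lists in 0 of 38. The AP-1 type motif TGANTCA was present in 16 of the 63 (25.4%) against 5.91% of protein-coding genes compared, among them Il6, Lif, Mmp3, Mmp10 and Mmp13. On the inflammatory lists 8 of 25 (32%) higher genes and 5 of 30 (16.7%) genes that were not higher held it. Outside those lists 8 of 38 (21.1%) higher genes did. In the Il6 promoter it began 249 bases before the start and did not overlap the NF-kB type match. The GATA type motif AGATAA was present in 8 of 63 (12.7%) against 7.25%, the SOX type motif AACAAT in 4 (6.35%) against 6.84%, and the CArG box, the binding motif of SRF, in 0 against 1.62%. The 3 Cxcl promoters belong to neighbouring paralogs and are not independent, and a match of letters is a description of the sequence only.

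The ligands of CCR2 attract monocytes. Ccl2, the most abundant chemokine gene at 49 h, was at 393 FPKM at 49 h against 61.9 FPKM at 35 h (2.65), and Ccl7 at 151 against 36.9 FPKM (2.002). Both were already abundant before induction, with 91.0 FPKM of Ccl2 and 49.4 FPKM of Ccl7 in the no dox library, against 28.6 and 19.9 FPKM in R1 ESC. The inflammatory chemokine genes Ccl3, Ccl4 and Ccl5 were each under 0.2 FPKM at 35 h and stood at 3.001 (1.84), 1.55 (1.25) and 2.25 FPKM (1.61) at 49 h. Cxcl10, an interferon-inducible ligand of CXCR3, was at 6.10 against 0.228 FPKM (2.53), Cxcl16 at 6.91 against 2.18 FPKM (1.31) and Cx3cl1 at 5.80 against 2.37 FPKM (1.01). The homeostatic ligands did not reach the difference, with Cxcl12 at 7.98 against 4.84 FPKM (0.62), Cxcl14 at 10.1 against 6.24 FPKM (0.61), Ccl25 at 3.28 against 2.95 FPKM (0.12) and Ccl27a at 2.84 against 2.94 FPKM (-0.04).

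Of 15 measured cytokine and acute phase genes 10 were higher and 0 lower (median 1.22). On this list too, 15 genes reached 1 FPKM at 49 h and 9 at 35 h. With no filter 10 of 19 were higher (median 1.03), and with both libraries at 5 FPKM or more 2 of 3. Il6, a cytokine of the acute phase response, had 0.829 FPKM without dox, and 0.382, 1.01, 1.25 and 10.4 FPKM after 7, 21, 35 and 49 h (2.34). Lif, whose product is also the cytokine added to the medium of these cells, was at 19.8 FPKM at 49 h against 3.19 FPKM at 35 h (2.31). Ptx3, a soluble pattern recognition protein, was at 19.03 against 2.52 FPKM (2.51), and Saa3, an acute phase apolipoprotein, at 5.76 against 0.637 FPKM (2.05). Tnf was at 2.34 against 0.0812 FPKM (1.63).

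Some members were already abundant at 35 h. Ptgs2, which encodes the inducible cyclooxygenase, was at 88.0 FPKM at 49 h against 29.8 FPKM at 35 h (1.53). Csf1, the macrophage growth factor gene, was at 195 against 83.4 FPKM (1.22). Il1a (1.30), Csf2 (1.22) and the complement gene C3 (1.03) were also higher, each with under 1 FPKM at 35 h. Cebpd (0.97), Cebpb (0.74), Il11 (0.72), Socs3 (0.59) and Il34 (0.55) did not reach the difference.

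Among NF-kB pathway genes and targets 5 of 20 measured genes were higher and 0 lower (median 0.62), and all 20 differences were above 0. Those past the difference were the feedback inhibitors Tnfaip3, at 9.26 FPKM at 49 h against 1.99 FPKM at 35 h (1.78), and Nfkbie, at 3.69 against 1.08 FPKM (1.17), together with Tnfaip2 (1.39), Vcam1 (1.35) and Ikbke (1.28). None of the 5 subunit genes passed the difference, with Nfkb2 at 16.9 against 8.18 FPKM (0.96), Nfkb1 at 32.7 against 18.5 FPKM (0.79), Relb at 12.4 against 7.52 FPKM (0.65), Rel at 1.22 against 0.681 FPKM (0.40) and Rela at 18.7 against 14.2 FPKM (0.38). The inhibitor gene Nfkbia was at 37.5 FPKM at 49 h against 20.9 FPKM at 35 h (0.81), and had been at 36.6 FPKM at 21 h.

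The interferon list gave 5 higher and 0 lower of 16 measured genes (median 0.55), but 1 higher with a pseudocount of 5 and 0 of 7 with both libraries at 5 FPKM or more (median 0.06). The list summed to 844 FPKM at 49 h against 887 FPKM at 35 h, a ratio of 0.951. Isg15, a ubiquitin-like modifier, was at 7.45 FPKM at 49 h against 0.789 FPKM at 35 h (2.24). Ifit3 (1.76), Ifit1 (1.66), Usp18 (1.61) and Irf7 (1.44) were each under 0.4 FPKM at 35 h and between 2.39 and 2.91 FPKM at 49 h. Several abundant members did not pass it, with Ifitm1 at 244 against 338 FPKM (-0.47), Ifitm2 at 291 against 311 FPKM (-0.09), Irf1 at 26.0 against 25.7 FPKM (0.01) and Bst2 at 29.3 against 27.3 FPKM (0.10).

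Secreted proteases and their partners were among the 43 higher genes on neither set of lists. On a list of matrix metalloproteinases and their inhibitors, 3 of 15 measured genes were higher and 0 lower (median 0.42). Mmp13, a collagenase, was at 30.5 FPKM at 49 h against 3.45 FPKM at 35 h (2.82), Mmp3, a stromelysin, at 27.8 against 5.06 FPKM (2.25), and Mmp10 at 2.97 against 0.405 FPKM (1.5002). Without dox Mmp3 had 14.2 FPKM and Mmp13 had 3.60 FPKM, and after 21 h of dox they had 2.60 FPKM and 1.78 FPKM, so both had been lower at 21 h than before induction. The inhibitor Timp1 was at 310 against 169 FPKM (0.88) and Mmp14 at 56.2 against 39.98 FPKM (0.48). Inhba, the activin A subunit gene, was at 145 against 64.1 FPKM (1.17).

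Other higher genes outside the inflammatory and endoderm lists included the GTPase gene Rnd1, at 21.3 FPKM at 49 h against 3.82 FPKM at 35 h (2.21), and the transporter gene Slco4a1, at 18.9 against 4.22 FPKM (1.93). Zc3h12a, which encodes an RNase that degrades cytokine messages, was at 14.3 against 4.39 FPKM (1.51). The death receptor gene Fas, the 1 higher gene of 18 on the list of p53 targets and cell-cycle inhibitors, was at 6.30 against 1.57 FPKM (1.51), and the EGF receptor ligand gene Ereg at 17.5 against 5.83 FPKM (1.44). Il1rn, the antagonist of the interleukin-1 receptor, was at 7.13 against 2.58 FPKM (1.19). Serpina3g (1.80), Serpina3i (1.23), Ifi202b (1.07) and Ifi203 (1.12) belong to families of near-identical copies, and their values are less certain.

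**Figure D3:**
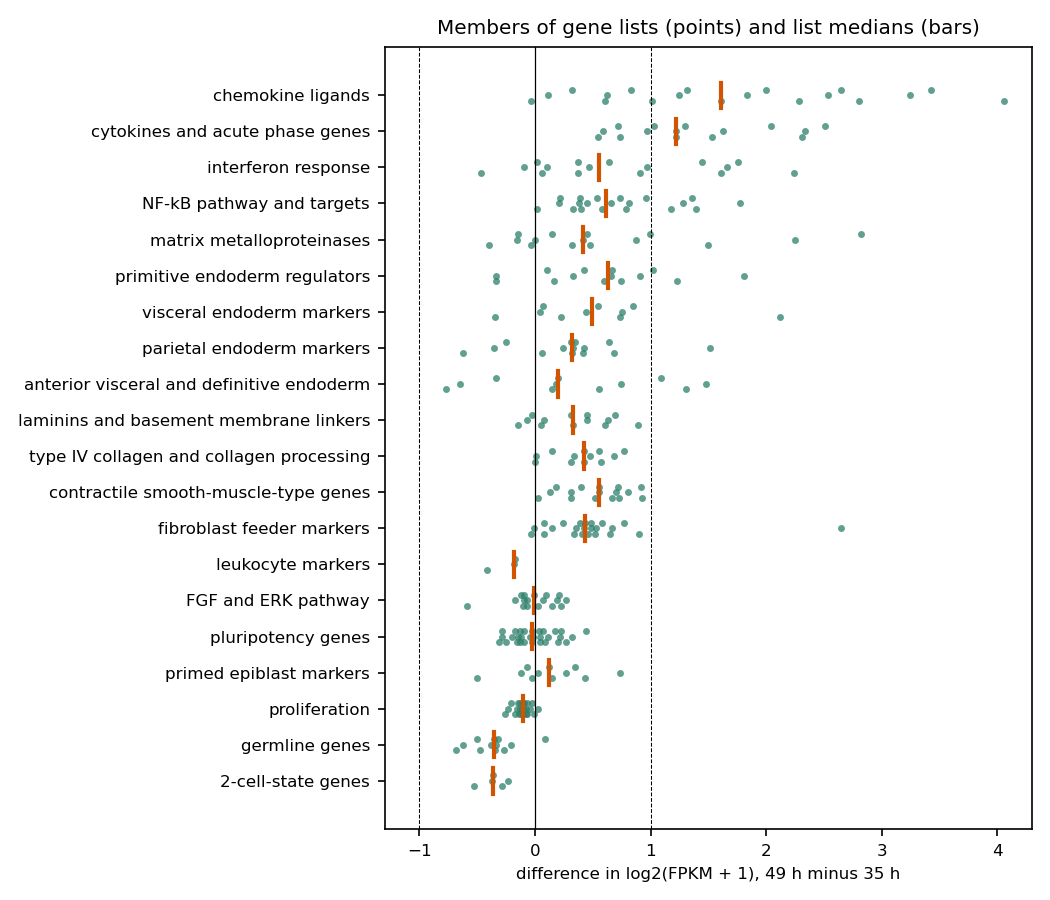
Difference in log2(FPKM + 1) between 49 h and 35 h for each measured member (points) of 20 gene lists, with the median of each list as a bar and dashed lines at -1 and 1. Chemokines (median 1.61) and cytokines (1.22) lie farthest to the right, and no pluripotency or proliferation gene passes a dashed line.

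Fibroblast feeder markers had smaller differences in the same direction. Of 23 measured feeder markers 1, Ccl2, was higher, and 0 were lower. The 22 others had a median of 0.43, with 20 above 0 and a range of -0.04 to 0.90, and the feeder list without Ccl2 summed to 3461 FPKM at 49 h against 2424 FPKM at 35 h, a ratio of 1.43. That sum was 3043 FPKM without dox, 1505 and 1972 FPKM after 7 and 21 h, and 1638 FPKM in R1 ESC. Col1a1, a fibrillar collagen gene, was at 629 FPKM at 49 h against 436 FPKM at 35 h (0.53), with 597 FPKM in the no dox library. The chemokine list, which includes Ccl2, summed to 926 FPKM at 49 h and 193 FPKM without dox, with 1 library each. The part of feeder cells, including a change in what they transcribe, in the inflammatory result was not tested.

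Leukocyte markers were low at both times. Of 12 listed genes 3 were measured and 0 were higher or lower (median -0.19), and the list summed to 33.8 FPKM at 49 h against 41.0 FPKM at 35 h. Ptprc, which encodes the pan-leukocyte antigen CD45, was at 0.0596 FPKM at 49 h against 0.0519 FPKM at 35 h. The 3 measured genes, Laptm5, Lyz2 and Cd68, were at 16.0 against 21.6 FPKM, 9.23 against 10.6 FPKM and 4.98 against 5.73 FPKM.

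No contractile gene of the smooth muscle type passed the difference. Acta2 (smooth muscle actin, ENSMUSG00000035783, mm9 chromosome 19, 34315580 to 34329826), given as a marker of this step, had 228 FPKM without dox, and 195, 245, 348 and 656 FPKM after 7, 21, 35 and 49 h. Its difference between 49 h and 35 h was 0.91 and so did not reach 1 log2 unit. Of 16 measured contractile genes 0 were higher or lower (median 0.55, all 16 above 0), and the list summed to 3035 FPKM at 49 h against 1990 FPKM at 35 h, a ratio of 1.53. Actg2 was at 86.0 against 44.9 FPKM (0.92), Tagln at 475 against 271 FPKM (0.81) and Tpm1 at 466 against 280 FPKM (0.73). On the list of SRF, YAP and TEAD output, 0 of 13 genes passed the difference (median 0.57), with Ctgf at 237 against 122 FPKM (0.95) and Ankrd1 at 16.8 against 8.59 FPKM (0.89). Feeder fibroblasts express many of these genes, and their part in this result was not tested.

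Endoderm genes formed the smaller set. Sox17 itself (ENSMUSG00000025902, mm9 chromosome 1, 4481009 to 4486494), the induced gene, was at 151 FPKM at 49 h against 191 FPKM at 35 h (-0.34), after 0.909 FPKM without dox and 283 and 281 FPKM after 7 and 21 h, and the values do not tell transgene and endogenous transcripts apart. Of 14 measured primitive endoderm regulators 3 were higher and 0 lower (median 0.63, 12 above 0). Gata4 (ENSMUSG00000021944, mm9 chromosome 14, 63817759 to 63890529), a zinc finger factor of the lineage, had 0.824 FPKM without dox, and 1.96, 4.57, 13.1 and 32.0 FPKM after 7, 21, 35 and 49 h (1.23). Each time was above the one before, and the 49 h value was under the 303 FPKM of day 6, the 660 FPKM of Sox17-XEN and the 337 FPKM of wild-type XEN. Dab2, an endocytic adaptor of the lineage, was at 52.1 FPKM at 49 h against 14.1 FPKM at 35 h (1.81), and Sox7, a SoxF factor, at 7.05 against 2.96 FPKM (1.02). The Sox7 difference was 0.98 once values were centred on the median gene, just short of 1.

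Other regulators had differences under 1 log2 unit. Hnf4a was at 1.70 FPKM at 49 h against 0.444 FPKM at 35 h (0.90), Pdgfra at 10.1 against 5.62 FPKM (0.75), Gata6 at 9.84 against 5.86 FPKM (0.66), Foxq1 at 13.1 against 7.93 FPKM (0.66) and Foxa2 at 6.15 against 4.69 FPKM (0.33). Foxa1 was at 4.12 against 5.45 FPKM (-0.33).

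Of 10 measured visceral endoderm markers 1 was higher (median 0.49), and of 14 parietal markers 1 was higher (median 0.32). Without rows that share a listed locus, Cubn among them, 0 of 7 visceral markers were higher (median 0.44). Cubn, the cubilin receptor gene of the absorptive visceral endoderm, was at 7.03 FPKM at 49 h against 0.847 FPKM at 35 h (2.12) and reached 939 FPKM at day 6. Its partners Lrp2 and Amn were at 10.4 against 5.72 FPKM (0.76) and 7.06 against 4.52 FPKM (0.55). Srgn (serglycin, ENSMUSG00000020077, mm9 chromosome 10, 61956581 to 61990199), a proteoglycan core protein, had 0.781 FPKM without dox, and 1.30, 9.49, 10.4 and 31.4 FPKM after 7, 21, 35 and 49 h (1.51). The apolipoprotein and transport genes Afp, Ttr, Apoa1, Apoa4 and Apob, which mark differentiated visceral endoderm, stayed under 1 FPKM at both times.

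On the list of anterior visceral and definitive endoderm genes 3 of 11 were higher and 0 lower (median 0.20), but 0 were higher with a pseudocount of 5, and the 4 measured genes at 5 FPKM or more in either library had a median of -0.49 and 0 higher. The list summed to 196 FPKM at 49 h against 293 FPKM at 35 h, a ratio of 0.667. Dkk1, a Wnt antagonist, had 0.0751, 1.04 and 4.67 FPKM after 21, 35 and 49 h (1.48). Cyp26a1, a retinoic acid hydroxylase, was at 4.59 FPKM at 49 h against 1.26 FPKM at 35 h (1.31). Cer1, a Nodal antagonist, was at 1.26 against 0.0592 FPKM (1.09). Lefty1, a further Nodal antagonist, was at 51.7 against 81.3 FPKM (-0.65) and Trh at 111 against 190 FPKM (-0.77).

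Basement membrane genes, which are major products of parietal endoderm, did not pass the difference in this interval. Of 13 laminin and linker genes 0 were higher or lower (median 0.33), with Lama1 at 53.5 FPKM at 49 h against 28.4 FPKM at 35 h (0.89), Lamc1 at 95.5 against 58.7 FPKM (0.69) and Lamb1 at 106 against 68.8 FPKM (0.61). Of 12 type IV collagen and collagen-processing genes 0 passed it (median 0.42), with P4ha2 at 41.6 against 23.9 FPKM (0.77), Sparc at 686 against 428 FPKM (0.68) and Col4a1 at 308 against 278 FPKM (0.15).

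No pluripotency gene passed the difference. Of 30 measured genes 0 were higher or lower (median -0.03), with Pou5f1 at 817 FPKM at 49 h against 994 FPKM at 35 h (-0.28), the naive marker Zfp42 at 143 against 156 FPKM (-0.13), Sox2 at 91.0 against 103 FPKM (-0.17) and the homeobox gene Nanog at 134 against 142 FPKM (-0.09). The estimate for Esrrb failed. The 17 FGF and ERK pathway genes had a median of -0.01 and the 23 proliferation genes one of -0.11, with 0 of either list past the difference. For 22 of the 23 proliferation genes the 49 h value was the lower one, such as Ccnb1 at 111 against 133 FPKM (-0.26). Housekeeping genes had a median of 0.03.

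The 5 lower protein-coding genes were Col9a1, Pla2g1b, Boll, T and Gm11032. Col9a1, a collagen IX chain, had 0.0554 FPKM without dox, and 7.05, 34.9, 9.91 and 3.79 FPKM after 7, 21, 35 and 49 h (-1.19). Pla2g1b, a secreted phospholipase gene, was at 48.7, 41.1, 14.4, 7.77 and 2.90 FPKM in the same libraries (-1.17). T, the mesoderm factor Brachyury, was at 1.99 FPKM at 49 h against 5.002 FPKM at 35 h (-1.01), and the germ cell gene Boll at 0.208 against 1.51 FPKM (-1.06). Gm11032 was listed at 0 at 49 h against 980 FPKM at 35 h, shares its listed locus with another row, and was listed between 0 (wild-type XEN) and 6301 FPKM (day 6) in the other libraries.

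The genes with the largest negative differences include some highest at 21 h. Of the 20 largest negative differences among named rows, 10 were protein-coding. For 7 of these 10, among them Col9a1 and T, the highest value of the course to 49 h was that of 21 h. Psors1c2 was at 6.91 FPKM at 49 h against 14.6 FPKM at 35 h (-0.98), with 21.8 FPKM at 21 h, and Ppp2r2c at 3.74 against 7.96 FPKM (-0.92) and 16.2 FPKM at 21 h. Hsd11b2 (-0.91), Camk2b (-0.85) and Xlr3a (-0.81) had the same order, and none of these 5 reached 1 log2 unit. The other 10 of the 20 were small, antisense or unmatched RNA rows, most of them listed at 0 at 49 h.

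Rows that are not protein-coding gave 58 higher and 59 lower, close to an even split. Of the 58, 48 were listed at 0 at 35 h, and of the 59, 53 were listed at 0 at 49 h. Among the higher rows 25 were snoRNA and 7 snRNA, and among the lower rows 24 were snoRNA, 10 snRNA and 8 microRNA. By the rule of comparison these rows have status OK in both libraries, but a listed 0 may still be uncertain. No fold is given for these rows.

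The genes of the step were then placed in contrasts that hold neither the 49 h nor the 35 h library. Day 6 against no dox had 19.6% of protein-coding genes higher and 13.8% lower, Sox17-XEN against no dox 23% and 15.6%, and wild-type XEN against R1 ESC 29.2% and 16.7%. Both contrasts against no dox share that library, so each is given on its own. Among the genes compared in both, 17 of the 84 higher genes of the step (20.2%, against 18.2% of all) were higher at day 6 and 29 (34.5%, against 13.5%) were lower. In Sox17-XEN 18 (21.4%, against 21.2%) were higher and 21 (25%, against 15.1%) lower. In wild-type XEN 22 (26.2%, against 27.4%) were higher and 22 (26.2%, against 15.3%) lower.

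The endoderm and inflammatory genes of the step were counted apart in these contrasts, with no test between them. Of all protein-coding genes compared in both, 18.2% were higher and 13.5% lower at day 6, 21.2% and 15.1% in Sox17-XEN, and 27.4% and 15.3% in wild-type XEN. Of the 8 endoderm genes 7 (87.5%) were higher and 0 lower in each of the 3 contrasts, the exception being Cer1, at 0.249 FPKM at day 6 and listed at 0 in wild-type XEN. The endoderm lists name markers of the lineage of XEN cells, so this count follows largely from the lists and says nothing about the step. Of the 33 inflammatory genes 2 (6.06%) were higher and 9 (27.3%) lower at day 6 against no dox, and 5 (15.2%) were higher and 8 (24.2%) lower in wild-type XEN against R1 ESC. In Sox17-XEN against no dox 4 of the 33 (12.1%) were higher and 6 (18.2%) lower, the latter share nearer that of all genes. Of the 33, 21 were under 1 FPKM at day 6 and 24 were under 1 FPKM in wild-type XEN. Several of these were already under 1 FPKM without dox, such as Ccl20 (0.307 FPKM), Cxcl2 (0.149 FPKM) and Il6 (0.829 FPKM). Others were not, such as Ccl2 (91.0 FPKM without dox). The share of all genes under 1 FPKM is not given, so these counts do not measure a loss. Ccl2 was at 0.964 FPKM and Cxcl5 at 0.132 FPKM at day 6. Others were well expressed there, with Cxcl10 at 8.89 FPKM and Cxcl16 at 13.2 FPKM at day 6, and Tnfaip3 at 11.7 FPKM and Tnfaip2 at 27.0 FPKM in wild-type XEN. The feeder list without Ccl2 summed to 324 FPKM at day 6 and 166 FPKM in wild-type XEN, and its part in these low values was not tested.

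**Figure D4:**
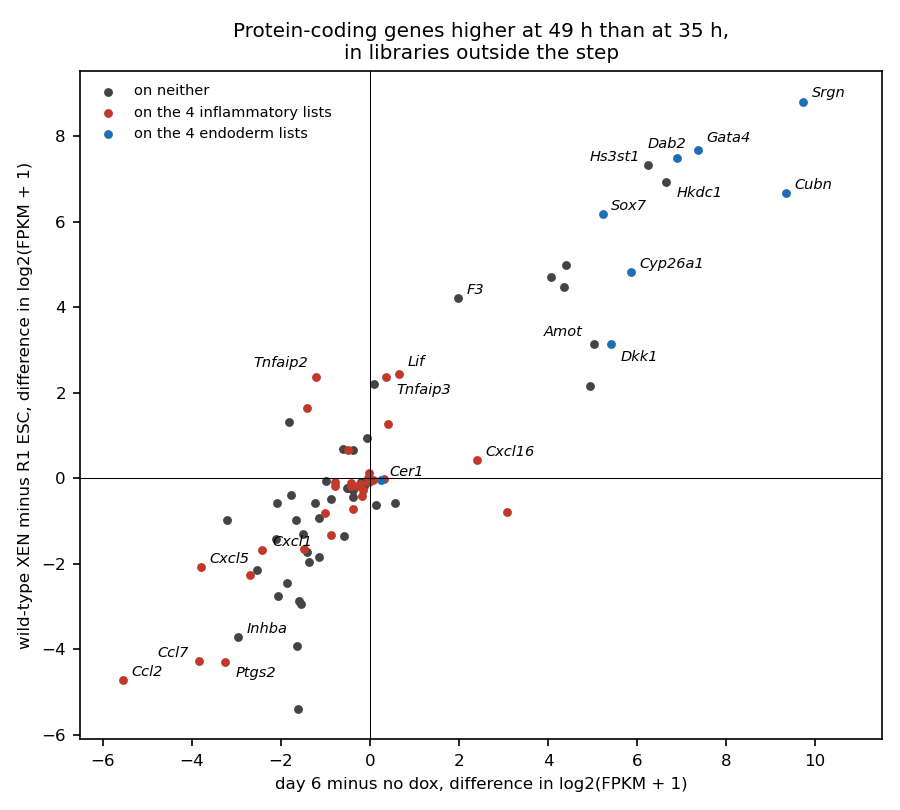
The 84 protein-coding genes higher at 49 h than at 35 h, by their difference at day 6 against no dox (horizontal axis) and in wild-type XEN against R1 ESC (vertical axis), both in log2(FPKM + 1) and from libraries outside the step. Of the 8 endoderm genes 7 lie at the upper right and Cer1 near the origin, while the most abundant chemokine genes, such as Ccl2, lie at the lower left.

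The 35 h values took part in choosing the genes, so their relation to no dox is a description. At 35 h, 3 of the 8 endoderm genes were already at least 1 log2 unit above no dox and the other 5 were within 1 unit of it. All 33 inflammatory genes were within 1 log2 unit of no dox at 35 h. Among the 43 genes on neither set of lists, 8 (18.6%, against 18.2% of all) were higher at day 6, a share near that of all genes, and 20 (46.5%, against 13.5%) were lower. Genes of this set with high levels at day 6 included the heparan sulfate enzyme gene Hs3st1, at 3.27 FPKM at 49 h against 0.899 FPKM at 35 h (1.17) and 141 FPKM at day 6, Hkdc1 at 2.07 against 0.483 FPKM (1.05) and 107 FPKM at day 6, and the angiomotin gene Amot at 35.5 against 16.0 FPKM (1.10) and 201 FPKM at day 6.

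**Figure D5:**
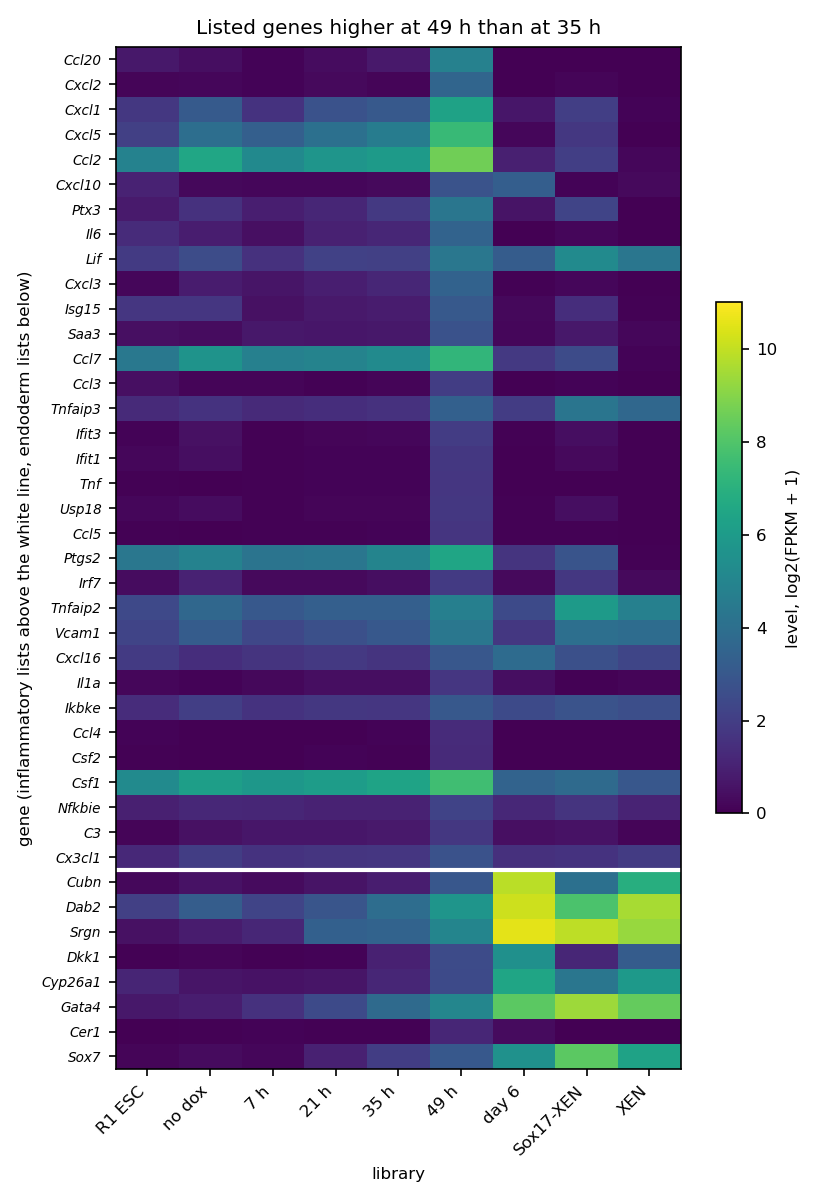
Levels of the 33 inflammatory and 8 endoderm genes that were higher at 49 h than at 35 h, in all 9 libraries, as log2(FPKM + 1) on a colour scale, with each row a gene and each column a library. The 49 h and 35 h columns chose the genes. In the other columns, 21 of the 33 inflammatory genes are under 1 FPKM at day 6. Several of these, such as Ccl20, Cxcl2 and Il6, are also under 1 FPKM without dox. Dab2, Srgn and Gata4 are bright at day 6 and in both XEN-type columns. Cubn is at 939 FPKM at day 6, 118 FPKM in wild-type XEN and only 15.5 FPKM in Sox17-XEN.

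Near the threshold, Vegfc (4.02 FPKM at 49 h against 1.498 FPKM at 35 h, 1.01) was the member just inside 1 log2 unit and Ifngr2 (13.1 against 6.07 FPKM, 0.9975) the gene just outside it. On the expression minimum, Nos1, with 1.0009 FPKM at 49 h, was just inside and Edn1, with 0.9995 FPKM at 49 h, just outside.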

How the data were processed

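The 9 libraries (1 for each group) are TruSeq RNA preparations of Trizol-extracted total RNA, per the labels' protocols. Per the submitters' processing notes the tools were Cuffdiff (no version given), Cufflinks 2.1.2 and TopHat2 2.0.11 with the mm9 build, with no role stated for any of them. The authors deposited FPKM per gene, with confidence bounds and a status for each value. Values whose status was not OK (60 failed and 330 low-data rows at 49 h, 67 and 330 at 35 h) were treated as missing, which left out 430 rows, and 24548 further rows stayed under 1 FPKM in both libraries. Of the rows compared, 43.2% have a listed locus that a second row also has (Ccl2, Cxcl10, Ptx3, Cubn and Dab2 among them), which makes their values less certain. Use of strand is not stated, and depth was estimated only as the commonest ratio of low values (shared by 13.9% of 5664 genes).

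From these values log2(FPKM + 1) differences, list counts, medians and sums were computed with Python 3.11.15, numpy 2.4.6 and pandas 2.3.3, and figures with matplotlib 3.10.9. Duplicate symbols were resolved to the row with OK status and the highest level. Gene types come from GENCODE M21 (32917 IDs matched, 20214 protein-coding), and promoters from RefSeq on GRCm38.p6, matched by symbol for 63 of the 84 higher protein-coding genes. Counting was checked on simulated data, with large changes planted only in genes at 5 FPKM or more at 35 h. That check does not cover genes near 1 FPKM. Alternatives were pseudocounts of 0.1 and 5, other filters and thresholds, centring, and 49 h against 21 h.

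The genes named are Sox17, Gata4, Ccl20, Srgn and Acta2, the 20 largest differences in each direction apart from small and predicted RNAs by symbol, and up to 6 members of each list. Further genes were named after their values were seen. The step and its 40 gene lists were chosen with earlier results of these data known. The lists of leukocyte markers and of matrix metalloproteinases, and the alternatives of 5 FPKM in both libraries and of 49 h against 21 h, were added after these files were seen. A few genes are not reported here.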

Additional observations from a re-analysis of the deposited data

How the results depend on the processing

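No paired analysis was possible because each group has 1 library. Against 21 h in place of 35 h, 0 of the 84 higher and 0 of the 5 lower protein-coding genes had the other sign, but 2 of the 59 lower rows of other types did (a snoRNA row, SNORD94, and the antisense row Snhg9) and 36 were at 0. That contrast holds the same 49 h values that chose the genes. Its signs, and the genes that remain in it, were thus partly fixed in advance and are no independent check. The count of genes higher at 49 h, 142 as reported, was 229 with a pseudocount of 0.1, 72 with a pseudocount of 5, 84 over protein-coding rows alone, 84 without rows sharing a locus, 61 at 2 log2 units, 25 with both libraries at 5 FPKM or more and 280 against 21 h in place of 35 h. The count of genes lower, 64 as reported, was 114, 40, 5, 16, 44, 2 and 226 in the same order. Requiring the authors' intervals not to overlap left 0 in each direction. Of the 84 higher protein-coding genes, 32 remained with a pseudocount of 5, 68 without rows sharing a locus, 79 after centring on the median gene and 83 against 21 h. The share of higher genes of all types that were lower at day 6 against no dox, 31.0%, was 39.6% among genes at 5 FPKM or more in either library and 60% among those at 5 FPKM or more in both. The share lower in wild-type XEN against R1 ESC, 25.5%, was 33.8% with a pseudocount of 5, 48% with both libraries at 5 FPKM or more and 35.4% against 21 h. By the main rule 13.5% of all genes were lower at day 6 and 16.1% in wild-type XEN. No share of all genes is given for the alternatives, so these changes cannot be read as a stronger or weaker result. The median of the chemokine list, 1.61, was 2.67 with a pseudocount of 0.1 and 0.71 with one of 5, so the size of a difference for genes near 1 FPKM depends on the pseudocount. Depth in reads is unknown, which limits all values near 1 FPKM.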

Other observations

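Over all genes compared, 60.3% had a difference above 0, which is the background for the counts given here. Of 22 measured lysosomal and endocytic genes 2, Cubn and Dab2, were higher and 0 lower (median 0.36, 20 above 0). The cathepsin genes Ctsc, at 7.82 FPKM at 49 h against 3.98 FPKM at 35 h (0.83), and Ctsl, at 273 against 157 FPKM (0.80), came next. Without rows that share a listed locus, Cubn and Dab2 among them, 0 of 11 were higher (median 0.42). Of 16 proteoglycan genes 2, Srgn and Hs3st1, were higher, and all 16 differences were above 0 (median 0.51). Among 10 measured BMP targets 0 passed the difference (median 0.43), with Id1 at 29.0 against 17.7 FPKM (0.68), Id3 at 57.4 against 35.5 FPKM (0.68) and Id4 at 8.20 against 11.9 FPKM (-0.49). Of 17 immediate early genes 1, Ier3, was higher, at 47.1 against 15.3 FPKM (1.56). The AP-1 subunit genes Fosl1 (0.58), Fosl2 (0.58) and Junb (0.55) did not reach the difference, and Fos was at 1.19 against 0.909 FPKM (0.20).

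Germline and 2-cell-state genes had negative medians, with 0 past the difference. Of 12 germline genes 11 were below 0 (median -0.35), with Stra8 at 0.684 FPKM at 49 h against 1.70 FPKM at 35 h (-0.68) and Sycp3 at 3.87 against 6.52 FPKM (-0.63). All 5 measured 2-cell-state genes, copies of the Zscan4 family that share sequence, were below 0 (median -0.36), with Zscan4c at 1.79 against 3.02 FPKM (-0.53). Of 13 endothelial genes linked to SoxF factors 0 passed the difference and 5 were above 0 (median -0.24, but 0.08 without rows sharing a locus), with Tie1 at 1.54 against 2.94 FPKM (-0.63) and Pecam1 at 20.6 against 27.2 FPKM (-0.39).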
